A study of Mus musculus with 5 samples.

Results

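The apoptosis regulators and caspases of mouse testis were described in testes lacking Taf7l, a germ cell paralogue of the TFIID subunit gene Taf7. Members were taken by gene symbol: the Bcl2 family, the caspases, the inhibitor of apoptosis (IAP) genes, Apaf1, Diablo and the genes named for Trp53. The symbols matched 49 of 22599 gene names, on 121 transcript rows of the expression table. Messenger RNA came from testis of 3-month-old Taf7l-/Y males, labelled as knockout, and of wild-type males of the same age, with equal RNA of 6 animals pooled into 1 library per genotype. TAF7L, RNA polymerase II (Pol II) and IgG control chromatin immunoprecipitation (ChIP) libraries, 1 each, are labelled as wild-type testis of the same age, although their shared protocol names wild-type and knockout chromatin from 10 mice. With 1 library per condition there was no replicate check, and differences are given by size without a test.

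The BCL2 family acts at mitochondria. BAX and BAK1 open the outer mitochondrial membrane, the BCL2-like proteins BCL2L1, BCL2L2 and MCL1 restrain them, and BH3-only proteins such as BAD, BID, BIK and PUMA (the product of Bbc3) relieve that restraint. Released cytochrome c joins APAF1 to activate caspase 9, which cleaves the executioner caspases. XIAP blocks caspases and is itself removed by DIABLO. Germ cells die by this route during normal spermatogenesis, and mouse males without Bax or Bcl2l2 are infertile.

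Promoter sequences are shown for the members on which the results turn: Bcl2l14, Trp53tg5 and Bax, the members past 2-fold in RNA, and Mcl1 and Diablo, which had the highest TAF7L promoter scores on the transcript rows used. Each is the 250 bases before the RefSeq start (GRCm38.p6), read 5' to 3' on the gene's strand, and the window farthest upstream where a gene has several annotated starts. Capitals mark matches on either strand to any of 5 motifs. The GC box was searched as GGGCGG. The CCAAT box was searched by the letters of its name, and the ETS core as TTCCGG. The TATA box was searched as TATAAA, and the core of the cAMP response element as TGACGT. None of the printed matches overlaps another. Matches are descriptions and were not tested as binding sites.
Bcl2l14 (chr6:134396079-134396328, plus strand): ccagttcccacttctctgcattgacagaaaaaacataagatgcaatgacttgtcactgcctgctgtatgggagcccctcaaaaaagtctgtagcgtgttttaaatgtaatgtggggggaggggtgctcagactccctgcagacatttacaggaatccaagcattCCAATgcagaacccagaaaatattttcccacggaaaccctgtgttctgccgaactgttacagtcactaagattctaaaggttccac
Trp53tg5 (chr2:164473725-164473974, minus strand): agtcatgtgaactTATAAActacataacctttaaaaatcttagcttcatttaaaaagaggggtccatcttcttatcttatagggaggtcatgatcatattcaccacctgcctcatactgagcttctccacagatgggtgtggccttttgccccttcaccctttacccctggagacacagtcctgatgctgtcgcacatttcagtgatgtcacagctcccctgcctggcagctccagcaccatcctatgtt
Bax (chr7:45466899-45467148, minus strand): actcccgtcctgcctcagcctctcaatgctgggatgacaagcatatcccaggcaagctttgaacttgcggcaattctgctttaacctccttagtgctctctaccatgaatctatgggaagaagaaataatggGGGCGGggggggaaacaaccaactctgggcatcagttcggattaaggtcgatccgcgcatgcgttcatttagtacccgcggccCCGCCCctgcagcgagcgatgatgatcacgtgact
Mcl1 (chr3:95658471-95658720, plus strand): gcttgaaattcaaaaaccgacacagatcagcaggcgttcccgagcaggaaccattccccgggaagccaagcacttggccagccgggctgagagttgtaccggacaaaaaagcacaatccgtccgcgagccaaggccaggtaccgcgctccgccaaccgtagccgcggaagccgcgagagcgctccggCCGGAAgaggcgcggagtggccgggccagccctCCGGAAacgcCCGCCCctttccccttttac
Diablo (chr5:123524165-123524414, minus strand): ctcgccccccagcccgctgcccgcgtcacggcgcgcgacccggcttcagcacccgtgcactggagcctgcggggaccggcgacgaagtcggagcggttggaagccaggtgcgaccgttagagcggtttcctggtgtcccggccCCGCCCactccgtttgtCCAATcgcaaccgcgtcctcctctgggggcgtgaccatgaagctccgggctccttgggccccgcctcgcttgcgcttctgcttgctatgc
The Bcl2l14 and Trp53tg5 windows held no GC box and few CpG dinucleotides, 3 and 1, with 45.6% and 46.0% G or C. The Mcl1 and Diablo windows each held a GC box and 26 and 30 CpG, with 64.4% and 70.4% G or C. Bax lay between, with 2 GC boxes, 14 CpG and 54.0% G or C. Trp53tg5 alone among these windows held a TATA box, at position 14 from the 5' end of the window, far from the annotated start.

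The label of the knockout library was checked with Taf7l itself, which had a signal of 2.04 in the knockout and 13.2 in the wild type. The signal is the authors' expression value for a transcript, in a unit that is not stated, so levels are compared between libraries and not between genes. Each signal comes with a deposited standard deviation (SD) whose basis is not given and which is no replicate spread. The labels give 100000000 to 200000000 reads per RNA library, and no depth for the ChIP libraries. The transcript with the highest mean was used for each gene, and a gene was called measured at a mean signal of at least 1. Change is given as log2((knockout + 1)/(wild type + 1)), in which the added 1 shrinks the values of weakly expressed genes. Past 2-fold on this scale a gene is called higher or lower. The median log2 change of all 13014 measured genes was 0.40, so a value near 0.40 is where a typical gene lay. In bulk testis, fewer cells of a type and less RNA per cell cannot be told apart.

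Of the 49 members, 32 were measured and 3 of these were past 2-fold. Bax, the pore-forming effector, was higher in the knockout, and Bcl2l14 and Trp53tg5 were lower. The other 29 measured members, including every measured caspase, IAP gene and anti-apoptotic Bcl2 gene, lay within 2-fold. The shares past 2-fold, 1 member higher (3.12%) and 2 lower (6.25%), stand beside 7.18% of all measured genes that were higher and 7.11% that were lower. Members had a median log2 change of 0.52, with quartiles at 0.23 and 0.72, against 0.40 in all measured genes, with quartiles at -0.06 and 0.70. Above 0 were 27 of 32 members, 84.4%, against 72.7% of all measured genes. After the knockout library was rescaled to a median change of 0 over all measured genes, 18 of 32 members, 56.2%, were above 0 and 14 below. Of these 32, 2 were measured only through their knockout signal, Bcl2l15 among them.

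**Figure D1:**
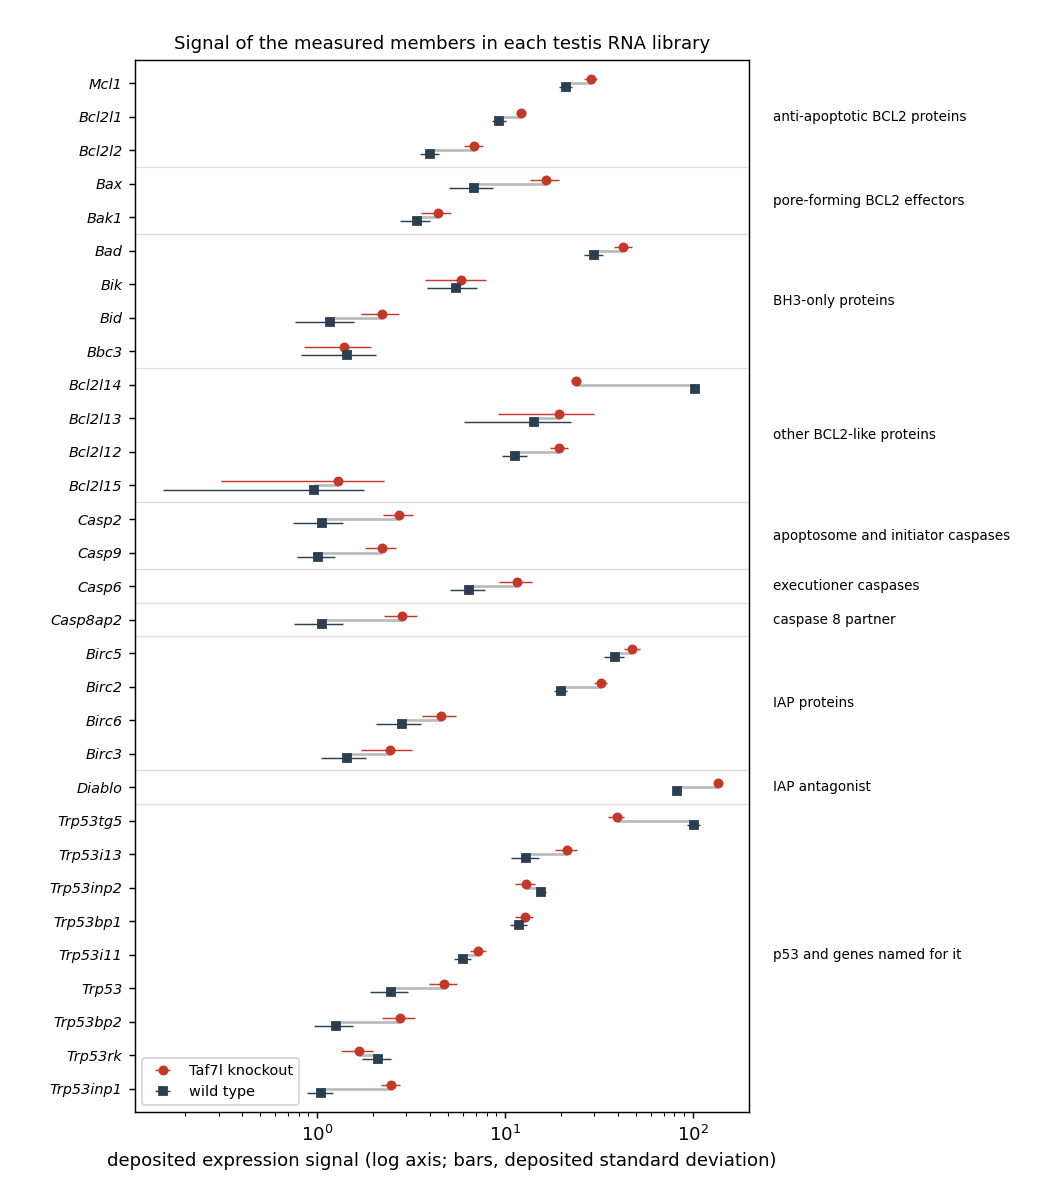
Deposited signal (log axis) of the measured members reported by name in the Taf7l knockout library (red circles) and the wild-type library (dark squares), with bars for the deposited standard deviation, grouped by role. Bcl2l14 at 23.9 in the knockout and 103 in the wild type is the widest gap, and Bax at 16.5 in the knockout and 6.84 in the wild type is the widest in the other direction among members with a signal over 5.

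Bcl2l14 had the largest difference. This Bcl2-related gene, known as Bcl-G, had a signal of 23.9 (SD 1.55) in the knockout and 103 (SD 3.47) in the wild type. This was 4.30-fold lower before the pseudocount, and a log2 change of -2.06 with it. Its mm9 position is chromosome 6, 134346346 to 134388742. All 3 of its transcript rows moved alike, with log2 changes from -2.06 to -1.96, so the difference did not rest on the row chosen.

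Trp53tg5, named as a p53 target gene, was the other lower member. Its signal was 39.3 (SD 3.99) in the knockout and 102 (SD 8.21) in the wild type (chromosome 2, 164295803 to 164299224, mm9). This was 2.58-fold lower before the pseudocount, and a log2 change of -1.35 with it. The whole row lies inside the span of Sys1, which had 4.11 in the knockout and 4.25 in the wild type, and the table gives no strand. All 8 late spermatid markers (Prm1, Prm2, Tnp1, Tnp2, Smcp, Odf1, Oaz3 and Gapdhs) were at least 2-fold lower in the same libraries, with a median log2 change of -2.49. Their summed signal was 12013 in the knockout and 67071 in the wild type. The part of this in the values of Bcl2l14 and Trp53tg5 was not tested.

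Bax was the only member called higher. It had a signal of 16.5 (SD 3.00) in the knockout and 6.84 (SD 1.78) in the wild type (chromosome 7, 52717064 to 52722268, mm9). This was 2.42-fold higher before the pseudocount, and a log2 change of 1.16 with it. Before the pseudocount, Casp8ap2 at 2.66-fold and Casp2 at 2.58-fold had larger ratios at lower signals. The other Bax transcript row had a signal of 7.14 in the knockout and 3.02 in the wild type and was also past 2-fold. With the knockout library rescaled to a median change of 0 over all measured genes, Bax had a log2 change of 0.70 and no member was called higher, against 1.02% of all measured genes. Bcl2l14 and Trp53tg5 were still called lower on that scale, at -2.53 and -1.83, against 12.4% of all measured genes. Sertoli cell markers had a median log2 change of 1.01 over 17 measured genes, of which 9 were at least 2-fold higher, and their summed signal was 1633 in the knockout and 775 in the wild type. Spermatogonial markers summed to 103 in the knockout and 45.4 in the wild type, and the part of either cell type in the Bax value was not tested.

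Bak1, which encodes the other pore-forming protein, lay below the median of all genes, with a log2 change of 0.29. It had 4.39 in the knockout and 3.40 in the wild type, and their SDs of 0.81 and 0.62 overlap. Its row lies inside Zbtb9, which had 44.5 in the knockout and 43.0 in the wild type. No strand is given, so reads of these genes cannot be told apart.

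All 3 measured anti-apoptotic members lay within 2-fold. Mcl1, needed for the survival of many cell types, had 28.7 in the knockout and 21.2 in the wild type. Bcl2l1, which encodes BCL-XL, had 12.3 in the knockout and 9.35 in the wild type. Bcl2l2, which encodes BCL-W and is needed for spermatogenesis, had 6.90 in the knockout and 4.01 in the wild type. Mcl1 and Bcl2l1 lay close to the median of all genes, with log2 changes of 0.42 and 0.36, and Bcl2l2 lay above it at 0.66. Bcl2 itself was close to undetected, with 0.122 in the knockout and 0.078 in the wild type. Also under the floor were the 4 Bcl2a1 copies, at 0.009 to 0.291 over both libraries, whose near-identical sequences can share reads, and Bcl2l10.

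A ratio of 2 genes within a library does not depend on the scaling between libraries. Bax over Bcl2l1 was 1.35 ± 0.26 in the knockout and 0.73 ± 0.20 in the wild type, where the error is propagated from the deposited SDs. This ratio was 1.84 times as high in the knockout, and that of Bax over Mcl1 was 1.79 times as high. Bax over Bcl2l2 was 2.40 ± 0.52 in the knockout and 1.71 ± 0.49 in the wild type, within the propagated errors. Bak1 over Bcl2l1 was 0.36 in both libraries. The BH3-only genes went both ways over Bcl2l1. Relative to the wild type, the knockout ratio was 1.44 for Bid, 1.09 for Bad, 0.81 for Bik and 0.74 for Bbc3. Bax was already the only member called higher, so its ratios are no separate result. With 1 library per genotype, none of these ratios has a replicate check.

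Among BH3-only genes no member was past 2-fold. Bad, whose product binds BCL-XL, had 42.7 in the knockout and 29.9 in the wild type. Bid, which links caspase 8 to mitochondria, had 2.23 in the knockout and 1.18 in the wild type. Bik had 5.85 in the knockout and 5.50 in the wild type, and Bbc3, the p53 target that encodes PUMA, had 1.39 in the knockout and 1.44 in the wild type. Bik and Bbc3 therefore lay below the median of all genes, and for both the ranges of 1 SD overlap. Bcl2l11, which encodes BIM, was under the floor with 0.716 in the knockout and 0.456 in the wild type.

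The other BCL2-like genes showed no common direction. Bcl2l12, a proline-rich relative, had 19.5 in the knockout and 11.4 in the wild type, a log2 change of 0.73, while Bcl2l14 was lower, as given above. Bcl2l13, which encodes a mitophagy receptor, had 19.6 in the knockout and 14.3 in the wild type on a short inner row with SDs of 10.3 and 8.20. The longer Bcl2l13 rows had at most 3.19 in the knockout and 2.41 in the wild type. Bcl2l15 had 1.30 in the knockout and 0.969 in the wild type.

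**Figure D2:**
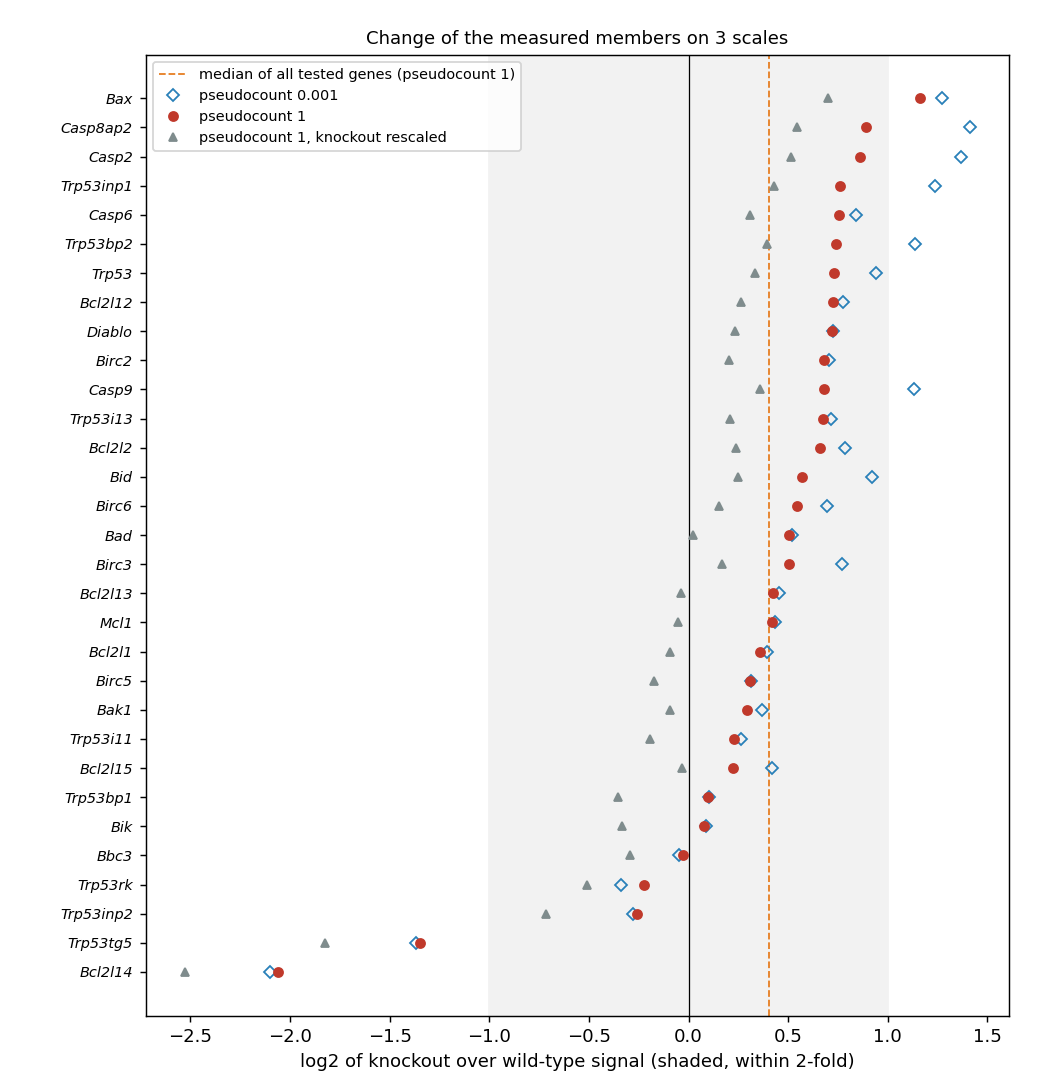
Log2 of knockout over wild-type signal of the measured members reported by name with pseudocount 1 (circles), pseudocount 0.001 (diamonds) and the knockout library rescaled (triangles), with the median of all measured genes at 0.40 as a dashed line and the range within 2-fold shaded. Bcl2l14 and Trp53tg5 lie below the shaded range on all 3 scales, Bax leaves it on the unscaled ones, and several low members, among them Casp2 and Casp9, leave it only with pseudocount 0.001.

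Most caspases had low signals in both libraries, so that the pseudocount sets their place. Casp2, an initiator caspase, had 2.74 (SD 0.49) in the knockout and 1.06 (SD 0.31) in the wild type, a log2 change of 0.86 with pseudocount 1 and 1.37 with 0.001. Casp9, the caspase of the apoptosome, had 2.23 (SD 0.42) in the knockout and 1.01 (SD 0.23) in the wild type, log2 changes of 0.68 and 1.13. For both of these caspases the ranges of 1 SD did not overlap between the libraries. Casp6, an executioner caspase gene, had 11.6 (SD 2.33) in the knockout and 6.49 (SD 1.38) in the wild type and stayed within 2-fold with either pseudocount. Casp8ap2, which encodes FLASH, a partner of caspase 8 that also acts in histone mRNA processing, had 2.84 in the knockout and 1.07 in the wild type.

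With pseudocount 0.001, 7 of 32 members were at least 2-fold higher, 21.9%, against 17.9% of all measured genes, and 2 were lower, against 9.25%. With pseudocount 0.1 the counts were again 7 higher and 2 lower, against 16.2% and 8.93%. With 0.001 the higher members included Bax, Casp2, Casp9, Casp8ap2, Trp53bp2 and Trp53inp1. On that scale the median of the members was 0.70, against 0.49 in all measured genes. Genes of low signal as a whole lay higher: over 7302 genes with a mean of 1 to 10 the median log2 change with pseudocount 1 was 0.48, and over the 18 members in that range it was 0.61. From a mean of 10 upwards it was 0.27 over 5712 genes and 0.42 over 14 members. The wild-type ranges of 1 SD lay below those of the knockout for 20 of 32 members, 62.5%, against 49.6% of all measured genes, and above them for 3, 9.38%, against 16.9%.

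Several genes of the caspase cascade were under the floor. Casp8, the initiator of death receptors, had 1.00 in the knockout and 0.49 in the wild type. Apaf1, the scaffold of the apoptosome, had 0.506 in the knockout and 0.188 in the wild type. In both the knockout signal was over 2-fold the wild-type signal before a pseudocount, at levels too low to be compared here. Casp1, the inflammatory caspase that matures interleukin 1 beta, went the other way, with 0.382 (SD 0.46) in the knockout and 1.07 (SD 0.54) in the wild type. Casp4, Casp11, Casp12 and Casp14 had at most 0.166 in either library. Casp11 is listed by RefSeq as an older name of Casp4, and their rows overlap.

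The measured IAP genes were all within 2-fold. Birc5, which encodes survivin and also serves chromosome segregation, had 47.8 in the knockout and 38.4 in the wild type. Birc2, which encodes the ubiquitin ligase cIAP1, had 32.4 in the knockout and 19.8 in the wild type, and its neighbour Birc3, which encodes cIAP2, had 2.46 in the knockout and 1.44 in the wild type. All 3 were higher in the knockout by less than 2-fold, and for Birc3 the ranges of 1 SD overlap. Birc6, a very large ubiquitin ligase, had 4.57 in the knockout and 2.83 in the wild type on a short row, and at most 1.97 in the knockout and 1.01 in the wild type on its longest rows. Xiap, the direct caspase inhibitor and the only X-linked member, was under the floor with 0.547 in the knockout and 0.246 in the wild type. Birc7 had 0.012 in the knockout and 0.018 in the wild type.

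Diablo, the antagonist of IAP proteins, also stayed within 2-fold. It had 136 (SD 5.01) in the knockout and 82.4 (SD 3.64) in the wild type, a log2 change of 0.72, and the ranges of 1 SD lay far apart. Its 3 transcript rows had log2 changes of 0.64 to 0.72.

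Trp53 and most genes named for it also lay within 2-fold. Trp53, which encodes the p53 transcription factor, had 4.77 (SD 0.80) in the knockout and 2.48 (SD 0.57) in the wild type, a log2 change of 0.73. A separate row named p53 overlaps it and had 4.05 in the knockout and 2.06 in the wild type. The ranges of 1 SD of Trp53 did not overlap between the libraries. Trp53bp2, which encodes the p53 partner ASPP2, had 2.77 in the knockout and 1.26 in the wild type. Trp53inp1, a stress-induced p53 cofactor, had 2.48 in the knockout and 1.05 in the wild type. Trp53i13 had 21.4 in the knockout and 13.03 in the wild type, and Trp53i11 had 7.22 in the knockout and 6.00 in the wild type. These signals were higher in the knockout, but only Trp53bp2 and Trp53inp1 passed 2-fold with the small pseudocount.

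A few of these genes had lower or mixed values. Trp53inp2, which acts in autophagy, had 12.9 (SD 1.59) in the knockout and 15.7 (SD 1.00) in the wild type, and its shorter row had 6.45 in the knockout and 11.5 in the wild type. Trp53rk, which encodes a kinase of the tRNA-modifying KEOPS complex, had 1.67 in the knockout and 2.12 in the wild type. Both lay below 0 on the log2 scale and within 2-fold. Trp53bp1, a DNA repair factor, depended on the row. The row used, over 121018998 to 121037711 of chromosome 2 (mm9), had 12.7 in the knockout and 11.9 in the wild type. A row over 121041402 to 121097122 had 3.87 in the knockout and 1.84 in the wild type. The log2 changes of its 4 rows spanned 0.10 to 0.78, the widest spread of any member.

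Other genes of the pathway were read from lists of death receptor, mitochondrial and p53 target genes. Of 49 listed genes outside the members, 47 were in the table and 34 were measured, with a median log2 change of 0.70. At least 2-fold higher were 4 of 34, beside 7.18% of all measured genes, and 0 were lower, beside 7.11%. Cycs, the somatic cytochrome c gene, had 26.4 in the knockout and 12.3 in the wild type, while Cyct, the testis form of cytochrome c, had 117 in the knockout and 72.5 in the wild type. Vdac1, a channel gene of the outer mitochondrial membrane, had 37.2 in the knockout and 15.96 in the wild type, and its relative Vdac2 had 245 in the knockout and 220 in the wild type. Cycs and Vdac1 were past 2-fold, and Cyct and Vdac2 were not. Among p53 targets, the stress gene Sesn2 had 25.7 in the knockout and 10.7 in the wild type, and Phlda3, an inhibitor of AKT, had 5.55 in the knockout and 2.05 in the wild type, both past 2-fold. Cdkn1a, the p53 target that arrests the cell cycle, had 5.43 in the knockout and 2.45 in the wild type, a log2 change of 0.90.

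Mdm2, the ubiquitin ligase that limits p53 and is itself a p53 target, had 19.3 in the knockout and 16.6 in the wild type. The median log2 change of the 15 measured p53 targets and regulators was 0.79. Of 7 measured genes of death receptors and adaptors none was past 2-fold. Tradd, an adaptor, had the largest value there, 37.1 (SD 33.1) in the knockout and 18.3 (SD 22.9) in the wild type, with SDs about as large as the signals. The death receptor gene Tnfrsf10b, also a p53 target, had 1.51 in the knockout and 2.07 in the wild type. After rescaling none of the 34 genes was past 2-fold, beside 1.02% of all measured genes higher and 12.4% lower. The median log2 change of the 34 genes was 0.32 on that scale.

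**Figure D3:**
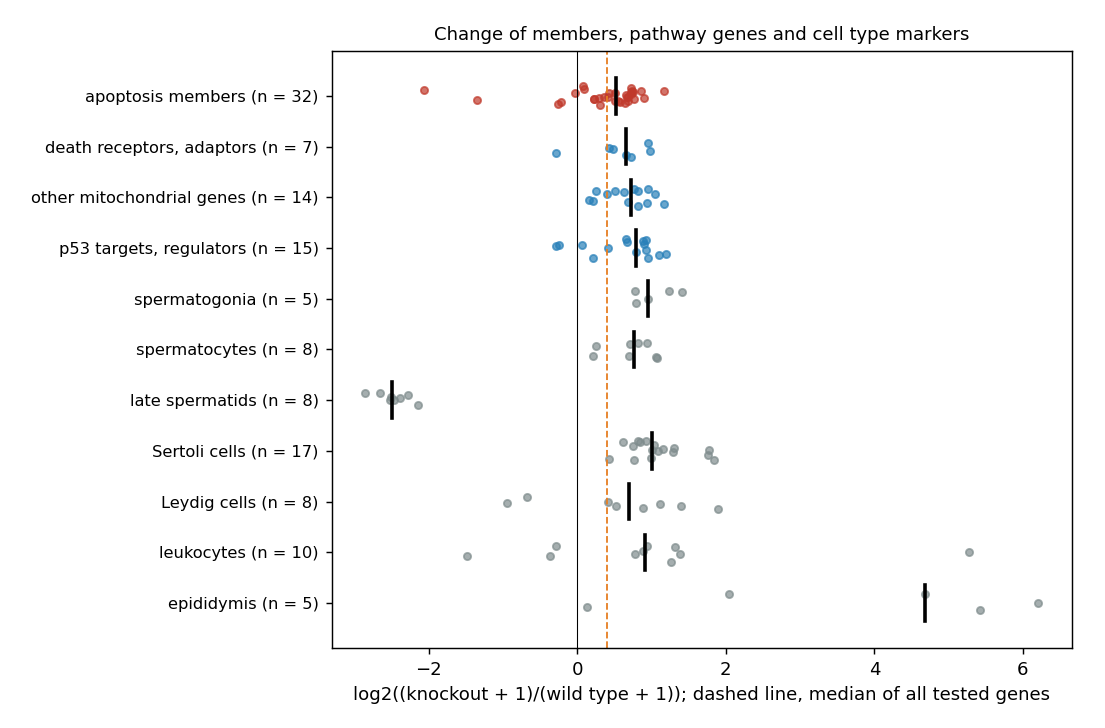
Log2((knockout + 1)/(wild type + 1)) of each measured gene among the apoptosis members (red), other pathway genes (blue) and cell type markers (grey), with black bars for list medians and a dashed line at 0.40 for all measured genes. The members centre on 0.52, late spermatid markers on -2.49 and Sertoli markers on 1.01.

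The marker lists were read for the cell types a testis or its surroundings can hold. Leukocyte markers summed to 369 in the knockout and 333 in the wild type. Of 10 measured ones 7 were above 0, beside 72.7% of all measured genes. The median log2 change of the leukocyte markers was 0.91, against 0.40 in all measured genes. The leukocyte sum held Aif1, with 97.3 in the knockout and 274 in the wild type. It also held Cd52, with 160.3 in the knockout and 3.17 in the wild type. Leydig cell markers summed to 1588 in the knockout and 1938 in the wild type, mostly Insl3 with 1052 in the knockout and 1686 in the wild type. Of 8 Leydig cell markers 6 were above 0, beside the same 72.7%, with a median of 0.70. Spermatocyte markers summed to 553 in the knockout and 424 in the wild type. Of these, 8 of 8 were above 0, beside the same 72.7%, with a median of 0.76. Epididymal markers summed to 167 in the knockout and 2.16 in the wild type. Of 8 listed, only 5 were measured, and 4 of these were at least 2-fold higher. These 4 (Crisp1, Adam7, Defb28 and Spink8) passed the floor only through their knockout signal, with at most 0.44 in the wild type. The floor itself therefore favoured that call. Crisp1, an epididymal secretory gene, alone had 75.9 in the knockout and 0.042 in the wild type. No listed marker was at 0 in both libraries, and Lcn5, an epididymal gene, was listed at 0 in the wild type alone. Ptprc, the pan-leukocyte gene, had 0.163 in the knockout and 0.051 in the wild type, under the floor. The part of these cell types in the members' values was not tested.

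TAF7L was assigned to the promoters of some members in wild-type testis. The authors' score has no stated definition, and 0 was read as no assigned signal. A TAF7L promoter score above 0 was present for 13 of 32 measured members, 40.6%, against 47.2% of all measured genes. Its 95% Wilson interval, 25.5 to 57.7, counts over genes only and treats them as independent draws. A Pol II promoter score was present for 27 of 32, 84.4% (68.2 to 93.1), against 75.7%. All 13 members with a TAF7L score also had a Pol II score, as did 6113 of the 6142 measured genes with a TAF7L score. Of the 27 members with Pol II, 48.1% had TAF7L, against 62.0% of all measured genes with Pol II. The table holds no IgG column, so scores are given without a background.

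**Figure D4:**
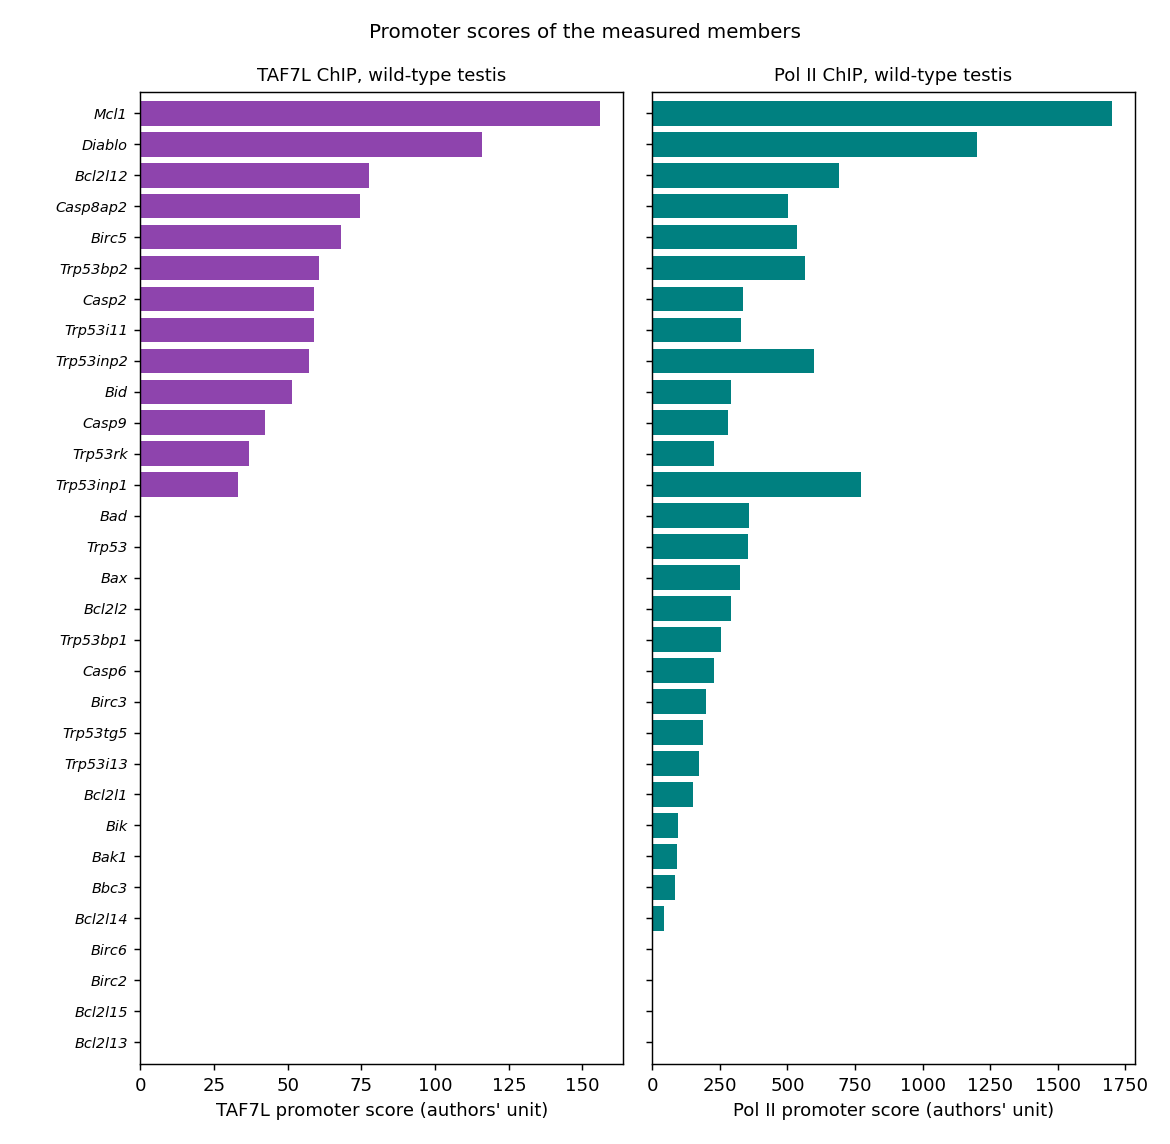
TAF7L (left) and Pol II (right) promoter scores of the measured members reported by name in wild-type testis, in the authors' undefined unit, sorted by TAF7L. On the transcript rows used, Mcl1 and Diablo lead both panels, with TAF7L scores of 156 and 116 and Pol II scores of 1700 and 1200. Every member listed under Trp53inp1 has a TAF7L score of 0 on its row.

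On the transcript rows used, Mcl1 and Diablo, whose promoters are printed above, led both scores. Longer rows of Bcl2l13, which were not the ones used, had 143 for TAF7L and 1300 for Pol II, above those of Diablo. Mcl1 had a TAF7L promoter score of 156 beside a Pol II score of 1700, and Diablo 116 beside 1200. The other 11 scored members lay lower, from 33.2 at Trp53inp1 to 77.4 at Bcl2l12, and the median of the 13 was 59.0, against 71.7 over all measured genes with a score. Among caspases, Casp2 had 59.0 and Casp9 42.4, and Casp8ap2 had 74.4. Of the p53-named genes, Trp53bp2 had 60.6, Trp53i11 59.0, Trp53inp2 57.3 and Trp53rk 37.0. Birc5 had 67.9 and Bid 51.6.

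None of the 3 members past 2-fold had a TAF7L promoter score. Bcl2l14 had 0 for TAF7L in the promoter, proximal and distal classes, beside a Pol II promoter score of 44.5, the lowest above 0 of the measured members. Trp53tg5 had a TAF7L distal score of 80.3 alone and a Pol II promoter score of 188. Bax had a TAF7L distal score of 66.1 alone and a Pol II promoter score of 325. Among all measured genes a TAF7L promoter score was present for 19.4% of those at least 2-fold lower and 34.0% of those at least 2-fold higher. Members with a TAF7L promoter score had log2 changes between -0.26 and 0.89 with a median of 0.68, and members without one a median of 0.50. Over all measured genes these medians were 0.43 with and 0.37 without a score.

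The remaining members without a TAF7L promoter score differed in where TAF7L was assigned. Bad, Bak1, Bbc3, Bcl2l1, Bcl2l2 and Birc2 had a proximal score instead, between 48.2 at Bcl2l2 and 89.7 at Birc2. A proximal TAF7L score was present for 8 of 32 members, against 28.0% of all measured genes, and a distal one for 21, against 49.8%. The same classes for Pol II held 23 members, against 55.8%, and 30, against 73.5%. In any of the 3 classes TAF7L was scored for 28 of 32 members, 87.5%, against 75.7% of all measured genes. On the rows used, the exceptions were Bcl2l14, Birc6, Casp6 and Trp53, whose Pol II promoter scores were 44.5, 0, 227 and 355. Birc6 was an exception only through its short row. Its longest rows had promoter scores of 87.2 for TAF7L and 627 for Pol II. When a score in any transcript row of a gene was counted, 18 members had TAF7L at the promoter, against 54.2% of all measured genes, and 30 had Pol II, against 85.0%. This added Bad, Bcl2l1, Bcl2l13, Birc6 and Trp53bp1, of which Bcl2l13 had the highest score on a longer row, 143 beside a Pol II score of 1300.

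On the transcript rows used, members under the floor were not scored for TAF7L at the promoter, with 0 of 17, against 3.46% of all genes under the floor. The 95% Wilson interval reaches 18.4%, but it treats genes as independent draws. Casp11 is an older name of Casp4 and the Bcl2a1 copies are near-identical, so these genes are not independent. Of these 17, 5 had a Pol II promoter score, 29.4%, against 15.3%, among them Bcl2l11 with 543, Apaf1 with 289, Casp8 with 115 and Bcl2 with 57.4. With any transcript row counted, 1 of 17 had TAF7L, 5.88%, against 4.00% of all genes under the floor, and 6 had Pol II, 35.3%, against 17.9%. The added scores were a TAF7L score of 34.9 at Bcl2l11 and a Pol II score of 85.9 at Xiap. Pol II at the promoters named on the rows used stood beside RNA signals of at most 1.00 in either library. Casp1, Casp4, Casp11 and Casp12, which lie side by side on chromosome 9, had 0 in every class for both factors.

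Promoter composition was set beside the scores. Of the 32 measured members 28 had a RefSeq window. In the 11 windows with a TAF7L score the median was 64.8% G or C and 22 CpG, against 58.4% and 12 CpG in the 17 windows without. In all measured genes with a window, the medians were 60.8% and 18 CpG with a TAF7L score and 58.0% and 12 CpG without. A GC box was found in 10 of the 11 scored member windows, 90.9%, and in 9 of the 17 others, 52.9%, against 62.9% and 52.2% of all measured genes with and without a score. The window of a gene need not be the start of the row that gave its score. With a score in any transcript row counted, the medians were 63.2% and 20.5 CpG in 16 member windows with a score and 56.2% and 9 CpG in 12 without. A GC box was then in 14 of 16, 87.5%, and 5 of 12, 41.7%, against 63.1% and 49.9% of all measured genes with and without a score. This split by any row was chosen after the data were seen. Over all 27025 gene windows, 33.0% held a GC box, 34.5% a CCAAT box, 12.3% an ETS core, 13% a TATA box and 6.52% the cAMP response element core.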

How the data were processed

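The authors deposited 2 tables. Per the file headers, the expression table gives each transcript a mean signal and a standard deviation in each genotype, their ratio as a spread measure, and the wild-type to knockout difference as log2. Per the file headers, the binding table gives scores for TAF7L and Pol II in 3 position classes. Bowtie, TopHat, Cufflinks and mm9 are named in the submitters' processing notes, without versions. Peak calling and the role of IgG were items not given in the sources used here. Deposited log2 values were within 0.02 of ones recomputed with 0.001 added, for 99.99% of 29058 transcripts.

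Of 55350 transcripts, 8085 without a gene name were left out, and the row with the highest mean was kept for each of 22599 names. Scores were joined by transcript accession. Of the 49 member names 47 are current RefSeq symbols. Of the 32 measured members 8 overlap a row under another gene name, which for Trp53 is the row named p53 and for Bik a row named Blk. Such a name need not be a different gene. Members and lists were chosen with earlier results of these data known. Some members are counted but not reported here by name. The other measured members are named, and of other lists the most abundant gene and the largest changes; Cycs, Cyct, Phlda3, Cdkn1a, Mdm2, Crisp1, Lcn5, Ptprc, Aif1, Cd52 and Insl3 were picked after their values were seen. Casp8ap2, Casp11 and Trp53tg5 were placed by role after the files were read. The 2-fold calls were run on simulated signals with changes far past 2-fold and no low means. That run cannot judge calls near 2-fold or at low signals. The library labels give no depth for ChIP. Calculations used Python 3.11.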

Additional observations from a re-analysis of the deposited data

How the results depend on the processing

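No paired analysis was possible because each condition has 1 library, and no replicate could be left out. Bcl2l14 and Trp53tg5 were called lower under every alternative tried, and no member changed sign while called. The count of higher members, 1 with pseudocount 1, was 7 with 0.1 and 7 with 0.001 (9 past 2-fold in all with either), 0 after rescaling the knockout library by 0.71, and 3 of 37 with transcript rows summed (5 in all, beside 8.66% of all genes higher and 6.80% lower), where Casp2 and Casp8ap2 joined Bax. Rescaling puts the median of all genes at 0 by construction. The median log2 change of the members, 0.52, was 0.69 with pseudocount 0.1, 0.70 with 0.001, 0.16 after rescaling, 0.67 with rows summed, 0.42 over 18 members with a mean of at least 5 and 0.31 over all 49. The 4 of 34 pathway genes past 2-fold became 14 with pseudocount 0.1, beside 16.2% of all genes higher and 8.93% lower, and 14 with 0.001, beside 17.9% and 9.25%. They became 0 after rescaling, beside 1.02% of all genes higher and 12.4% lower, and 7 of 38 with rows summed, beside 8.66% and 6.80%. A score at or above the median of scored genes was held by 4 members for TAF7L, 12.5%, against 23.6% of all measured genes, and 8 for Pol II, 25%, against 37.9%. Using the row with the longest span left 1 higher and 2 lower members of 30 measured, and the share over all genes was not computed for that setting. Low signals limit the caspases, most of which stood near or under the floor. Depth per transcript is unknown.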

Other observations

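Some neighbouring members carried equal scores. Birc2 and Birc3, neighbours on chromosome 9, had TAF7L scores of 89.7 in the proximal class of Birc2 and the distal class of Birc3, and Pol II scores of 1210 in the same classes. The Pol II promoter score of Birc3, 201, equals the distal score of Birc2. The short Bcl2l13 row with the highest signal had distal scores of 143 for TAF7L and 1300 for Pol II, the values its longer rows have at the promoter. Of the 49 members, 11 lie on chromosome 9 and 8 on chromosome 2.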
